A study of Mus musculus with 36 samples.

Results

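The 30 genes described here encode the enzymes that build cholesterol and fatty acids, a carrier of sterols, and the sterol regulatory element-binding proteins (SREBPs) with their regulators. They were chosen as a list of symbols, because Cyp51, the lanosterol demethylase, was lower in both mutant muscles in earlier results of these data. The genotype values of these genes are therefore given as a description, and where calls over all genes are counted among them, nothing is read from the count. All 30 symbols were found among the 51912 gene IDs of the count tables, and all 30 passed the filter on low counts in the tibialis anterior (TA), in the soleus and over all libraries, where 20841 genes passed. RNA-seq was done on whole TA and soleus muscles of 3-month-old male C57BL/6 mice, with 9 libraries from each of 4 groups, namely TA of WT and of ∆Ig3-MuSK mice and soleus of WT and of ∆Ig3-MuSK mice. The ∆Ig3-MuSK mice were homozygous for a CRISPR-Cas9 deletion of the Musk exons that encode the third immunoglobulin-like domain of MuSK, a receptor tyrosine kinase of the muscle membrane that also binds bone morphogenetic proteins. The allele was constitutive, so that every cell of the animal carried it, and had been backcrossed to C57BL/6. WT mice carried no deletion, and no mouse of either genotype received a treatment.

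Cells make cholesterol from acetyl-CoA. The mevalonate steps give farnesyl diphosphate, and the later steps join 2 of these into squalene, close the sterol rings and trim lanosterol to cholesterol. SREBP-2, the product of Srebf2, drives the genes of this pathway, and SREBP-1, the product of Srebf1, drives above all those of fatty acid synthesis. When membranes are rich in sterol, the Insig proteins hold Scap and its bound SREBP in the endoplasmic reticulum, and when sterol is scarce, Scap carries SREBP to the Golgi, where it is cut and released to the nucleus. Skeletal muscle makes some cholesterol of its own, although the liver is the better-known site of this pathway.

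The libraries held between 43492062 and 78660422 counts on genes. The median was higher in the TA, at 66259327 in WT and 65772531 in ∆Ig3-MuSK, than in the soleus, at 45371395 and 51110940. The genes of slow fibers marked the soleus, with their 5 genes summing to 16581 to 23389.7 CPM (counts scaled to the size of each library) in WT soleus and 79.6 to 144 in WT TA, and those of fast fibers were present in both muscles. Musk was counted over all of its exons, so reads missing from the deleted exons and a change in expression cannot be told apart in its level. It averaged 4.25 ± 0.948 CPM (SD, n = 9) in WT TA, 3.09 ± 0.391 in ∆Ig3-MuSK TA, 15.2 ± 1.82 in WT soleus and 11.3 ± 3.29 in ∆Ig3-MuSK soleus, and the genotypes were not called different in either muscle. On the first principal component of each muscle, WT TA replicates 3 and 5 (51.2 and 74.6) stood apart at the high end. So did ∆Ig3-MuSK soleus replicates 2 and 8 (34.0 and 44.9). Results that rest on these libraries at the high end are also given without them. WT soleus replicates 7 and 8 lay about as far out on the other side, at -37.5 and -31.4, and were not left out as a pair. No pair of libraries of a group agreed within sampling noise. The whole muscle was sequenced, so that fewer cells of a type and less RNA per cell cannot be told apart in any result below.

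The promoters of 3 genes that were lower in both mutant muscles (Cyp51, Msmo1 and Idi1), and of 2 genes with a sterol-type motif (Hmgcs1 and Srebf2), are shown first, because the choice of the list rests on SREBP, a factor that binds DNA. These genes and motifs were chosen after the matches were seen. The sequences are from RefSeq (GRCm38.p6) and give the 250 bases before the annotated start, 5′ to 3′ on the strand of the gene. Capitals mark TCACNCCA, a form of the sterol regulatory element, and CCAAT, the site of NF-Y, either as written or as their reverse complement.
Cyp51 (chr5:4104698-4104947, minus strand): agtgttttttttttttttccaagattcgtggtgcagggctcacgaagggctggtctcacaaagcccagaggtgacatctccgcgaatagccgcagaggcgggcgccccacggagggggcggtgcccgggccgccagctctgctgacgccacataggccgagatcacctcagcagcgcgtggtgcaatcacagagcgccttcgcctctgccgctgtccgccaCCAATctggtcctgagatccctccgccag
Msmo1 (chr8:64733579-64733828, minus strand): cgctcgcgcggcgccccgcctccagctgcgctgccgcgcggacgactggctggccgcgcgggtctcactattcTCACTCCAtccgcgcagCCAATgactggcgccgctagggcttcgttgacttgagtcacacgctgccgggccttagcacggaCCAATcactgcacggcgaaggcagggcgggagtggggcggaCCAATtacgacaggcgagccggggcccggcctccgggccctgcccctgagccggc
Idi1 (chr13:8885356-8885605, plus strand): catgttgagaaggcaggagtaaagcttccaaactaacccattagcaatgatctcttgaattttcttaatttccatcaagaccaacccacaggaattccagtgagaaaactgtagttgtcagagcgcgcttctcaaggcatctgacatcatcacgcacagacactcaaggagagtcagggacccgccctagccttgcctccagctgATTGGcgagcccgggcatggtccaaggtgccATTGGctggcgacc
Hmgcs1 (chr13:119690101-119690350, plus strand): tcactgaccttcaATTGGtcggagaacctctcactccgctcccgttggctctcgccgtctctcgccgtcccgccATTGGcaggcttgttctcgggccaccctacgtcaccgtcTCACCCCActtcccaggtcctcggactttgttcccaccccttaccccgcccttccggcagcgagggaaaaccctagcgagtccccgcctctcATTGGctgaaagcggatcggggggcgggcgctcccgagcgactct
Srebf2 (chr15:82147019-82147268, plus strand): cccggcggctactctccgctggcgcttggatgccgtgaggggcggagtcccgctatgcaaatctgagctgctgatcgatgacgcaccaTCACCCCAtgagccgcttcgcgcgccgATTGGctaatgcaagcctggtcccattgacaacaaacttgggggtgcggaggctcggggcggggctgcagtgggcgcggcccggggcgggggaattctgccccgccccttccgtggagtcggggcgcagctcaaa

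A window was listed for 24 of the 30 genes, and none for Sqle, Fdps, Fdft1, Stard4, Scd1 and Scd2. TCACNCCA, searched on both strands, was found in the windows of 3 of the 24 genes, which are Hmgcs1 at 137 bases before the start, Srebf2 at 162 and Msmo1 at 177. It was found in 3.67% of the 32851 windows of all genes. Since some genes had more than 1 start, the 24 genes had 32 windows, and 3 of these held TCACNCCA. CCAAT was found in 20 of the 32 windows (19 genes) and in 33.85% of all windows. CACGTG, an E-box that SREBP-1 can also bind, was found in 5 of the 32 windows (those of Hsd17b7, Sc5d, Dhcr7, Scap and Insig1) and in 6.02% of all windows. A match is a description of the letters and not a bound site, and the windows of Cyp51 and Idi1 held CCAAT, with TCACNCCA not among their 250 bases, which says nothing of whether SREBP acts on them.

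The 30 genes differed widely in level. On a scale corrected for length (RPKM, which is CPM per kilobase of exon), their group means in WT TA ran from 0.177 ± 0.0448 for Elovl6, which lengthens fatty acids, to 15.2 ± 1.64 for Fdft1, the squalene synthase, with a median of 2.02 over the 30 genes. The highest after Fdft1 in WT TA were Insig2, a sterol sensor, at 14.2 ± 1.24 RPKM and Srebf1 at 9.11 ± 1.65. In WT soleus the highest was Scd1, the stearoyl-CoA desaturase, at 23.3 ± 26.7 RPKM, with 1 library, replicate 1, at 451 CPM and the next at 125. Cyp51 itself was a low gene, at 1.04 ± 0.125 RPKM in WT TA and 1.34 ± 0.264 in WT soleus, with 172 to 360 counts in each of the 36 libraries. In WT TA, Lss, which closes the sterol rings in the step before Cyp51, was at 0.389 ± 0.0850 RPKM, and Tm7sf2, a sterol reductase that can act on the product of Cyp51, at 1.34 ± 0.0840. Msmo1, the methylsterol monooxygenase that acts on the sterol after these, was at 0.448 ± 0.0862 RPKM. Fdft1 shares 774 exonic bases with Ctsb on the other strand, and Cyp51 shares 166 with Akap9, and reads from these stretches cannot be assigned without strand.

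Cyp51 was lower in the mutant TA and in the mutant soleus, as the choice of the list requires. It ranged over 3.89 to 5.34 CPM (median 4.66) in WT TA and 2.98 to 3.90 CPM (median 3.66) in ∆Ig3-MuSK TA. In the soleus it ranged over 4.28 to 7.53 CPM (median 5.91) in WT and 3.37 to 4.89 CPM (median 4.27) in ∆Ig3-MuSK. The groups overlapped in both muscles, with 8 of 9 mutant TA libraries and 5 of 9 mutant soleus libraries below every WT library of the same muscle. The log2 fold change (∆Ig3-MuSK over WT) was -0.39 ± 0.0775 (SE) for the TA, a level 23.5% lower, and -0.50 ± 0.10 in the soleus, 29.3% lower. Akap9, which overlaps Cyp51, differed the other way, by 0.41 ± 0.12 on the log2 scale in the TA, beside 0.0890 ± 0.0445 in the soleus.

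**Figure D1:**
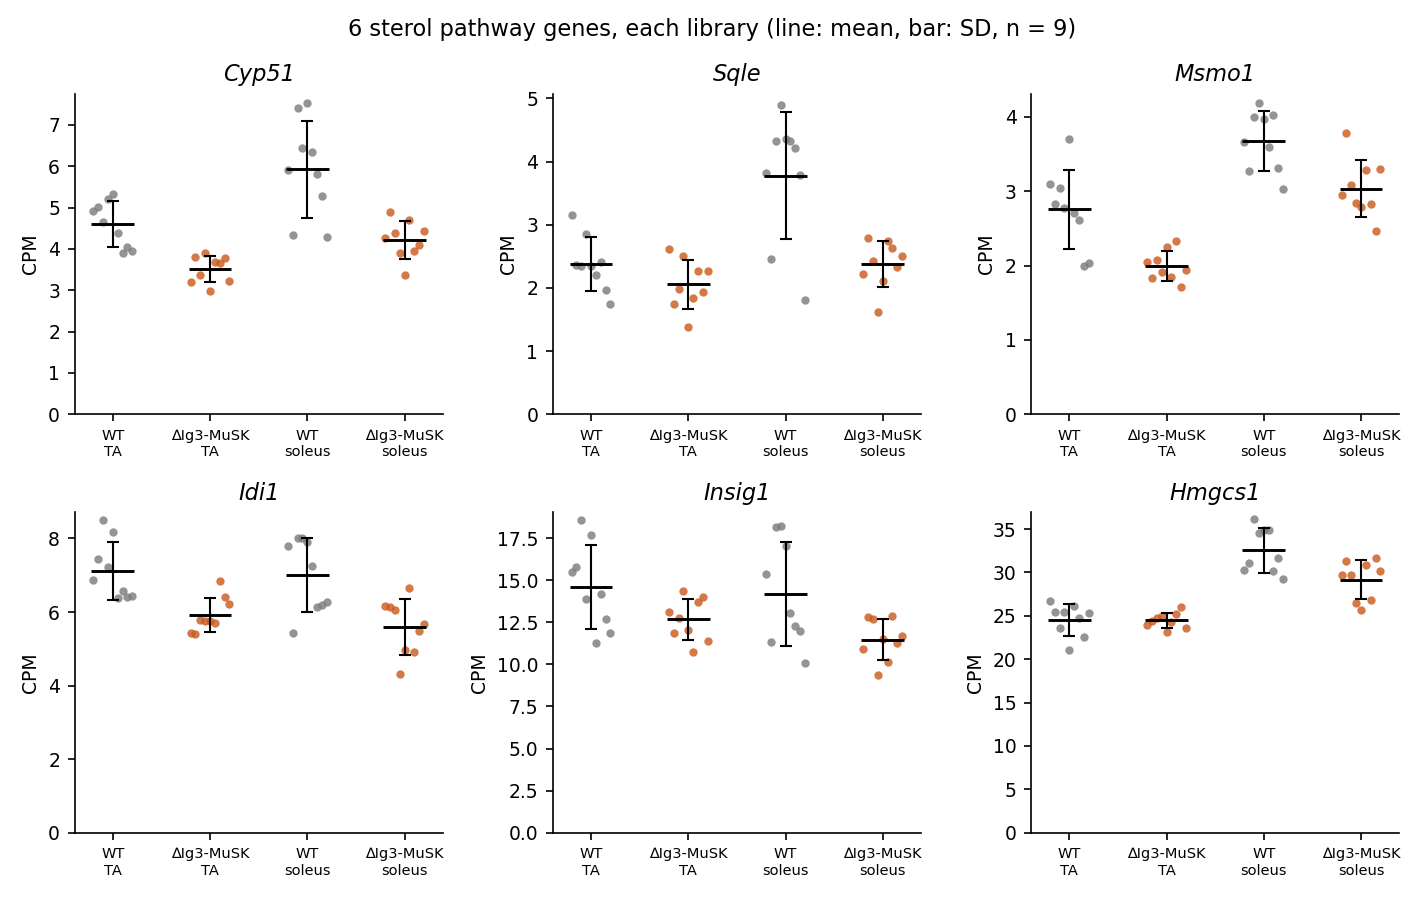
The level in CPM (y axis, from 0) of Cyp51, Sqle, Msmo1, Idi1, Insig1 and Hmgcs1 is plotted for every library of the 4 groups (x axis; points are libraries, the line is the mean and the bar the SD, n = 9). Cyp51, Msmo1 and Idi1 lie lower in ∆Ig3-MuSK than in WT in both muscles with some overlap, and Sqle lies lower mainly in the soleus.

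Of the mevalonate genes, Idi1 and Fdps were the lowest in the mutant TA relative to WT. Idi1, the isopentenyl diphosphate isomerase, ranged over 6.39 to 8.51 CPM (median 6.88) in WT TA and 5.41 to 6.83 CPM (median 5.76) in ∆Ig3-MuSK TA, a log2 fold change of -0.26 ± 0.0678. In the soleus it ranged over 5.44 to 8.02 CPM (median 7.25) in WT and 4.31 to 6.66 CPM (median 5.66) in ∆Ig3-MuSK, a change of -0.34 ± 0.0896. These ranges overlapped in both muscles, and a pseudogene of Idi1 (Gm13502, 73 to 162 counts per library) may share its reads and differed by -0.22 ± 0.0850 in the TA and -0.38 ± 0.12 in the soleus. Fdps, the farnesyl diphosphate synthase, ranged over 7.92 to 12.2 CPM (median 8.62) in WT TA and 6.51 to 9.26 CPM (median 7.35) in ∆Ig3-MuSK TA, a change of -0.27 ± 0.0882, beside -0.22 ± 0.0696 in the soleus. Without both WT TA libraries that stood apart, the TA value of Fdps was -0.15. Fdps shares 1124 exonic bases on the same strand with Gm43738, which differed by -0.13 ± 0.0616 and -0.17 ± 0.0447. Hmgcs1, which makes HMG-CoA, differed by -0.00354 ± 0.0478 in the TA, beside -0.17 ± 0.0496 in the soleus, on the log2 scale. The other 4 mevalonate genes lay between -0.18 (Pmvk, the phosphomevalonate kinase) and 0.10 (Mvd, the mevalonate diphosphate decarboxylase) in the TA and between -0.14 (Mvk, the mevalonate kinase) and 0.0401 (Acat2, which joins acetyl-CoA units) in the soleus.

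Of the squalene to cholesterol genes, Sqle and Msmo1 stood beside Cyp51. Sqle, the squalene epoxidase and a rate-limiting step, ranged over 1.80 to 4.90 CPM (median 4.21) in WT soleus and 1.63 to 2.78 CPM (median 2.42) in ∆Ig3-MuSK soleus, a log2 fold change of -0.68 ± 0.15 or 37.6% lower. Of the 9 mutant soleus libraries, 1 lay below the WT range and the others lay inside it. In the TA, Sqle differed by -0.20 ± 0.12. Msmo1, which starts the removal of methyl groups later in the pathway than Cyp51, ranged over 1.99 to 3.71 CPM (median 2.77) in WT TA and 1.71 to 2.33 CPM (median 1.94) in ∆Ig3-MuSK TA, a change of -0.46 ± 0.11, and differed by -0.28 ± 0.0823 in the soleus. The steps did not all lie on the same side of 0. Fdft1 lay at -0.00759 ± 0.0838 (log2) in the TA, close to 0, and at 0.25 ± 0.0773 in the soleus, and Hsd17b7, a ketosteroid reductase, at 0.10 ± 0.0815 and -0.25 ± 0.12. Lss lay at 0.20 ± 0.12 and 0.0380 ± 0.0766, and Tm7sf2 at 0.0252 ± 0.0612 and 0.11 ± 0.0704. Nsdhl, Ebp, Sc5d and Dhcr7, which finish the sterol, lay between -0.14 and -0.0248 in the TA and between -0.12 and -0.0200 in the soleus.

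Stard4, which carries cholesterol between membranes, ranged over 4.86 to 6.91 CPM (median 5.51) in WT soleus and 3.57 to 5.43 CPM (median 4.41) in ∆Ig3-MuSK soleus. Its log2 fold change was -0.37 ± 0.0938 in the soleus and -0.0942 ± 0.0830 in the TA. Srebf2 ranged over 16.8 to 24.6 CPM (median 21.0) in WT soleus and 14.0 to 20.5 CPM (median 16.1) in ∆Ig3-MuSK soleus, a change of -0.34 ± 0.0860, beside -0.0827 ± 0.0860 in the TA. For both genes the mutant soleus libraries reached below the WT range, 5 of 9 for Stard4 and 6 of 9 for Srebf2. Insig1, itself a target of SREBP, differed by -0.20 ± 0.0892 in the TA, beside -0.31 ± 0.11 in the soleus. Srebf1, Scap and Insig2 lay between -0.13 and 0.0905 in the TA and between -0.10 and 0.0758 in the soleus.

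The fatty acid genes did not share a sign. Scd2, a desaturase, ranged over 16.9 to 32.9 CPM (median 21.6) in WT TA and 12.9 to 23.8 CPM (median 19.2) in ∆Ig3-MuSK TA, a log2 fold change of -0.26 ± 0.13, and differed by -0.30 ± 0.12 in the soleus. Elovl6 was near the floor of the list, at 0.840 to 1.69 CPM (median 1.12) in WT TA and 0.583 to 1.36 CPM (median 0.923) in ∆Ig3-MuSK TA, a change of -0.21 ± 0.17 that was -0.11 without WT TA replicate 1 and -0.14 without ∆Ig3-MuSK TA replicate 6. Scd1 ranged over 41.5 to 451 CPM (median 72.8) in WT soleus and 35.3 to 368 CPM (median 178) in ∆Ig3-MuSK soleus, so that its change of 0.57 ± 0.47 was close to its own SE. That change was 1.23 without WT soleus replicate 1 and 0.34 without ∆Ig3-MuSK soleus replicate 9. Acaca, the acetyl-CoA carboxylase, differed by 0.20 ± 0.0846 in the TA, beside -0.0710 ± 0.0669 in the soleus. Fasn, the fatty acid synthase, differed by 0.19 ± 0.19 and 0.13 ± 0.25, and Acly, which supplies acetyl-CoA, by 0.0178 ± 0.0724 and -0.10 ± 0.0719.

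**Figure D2:**
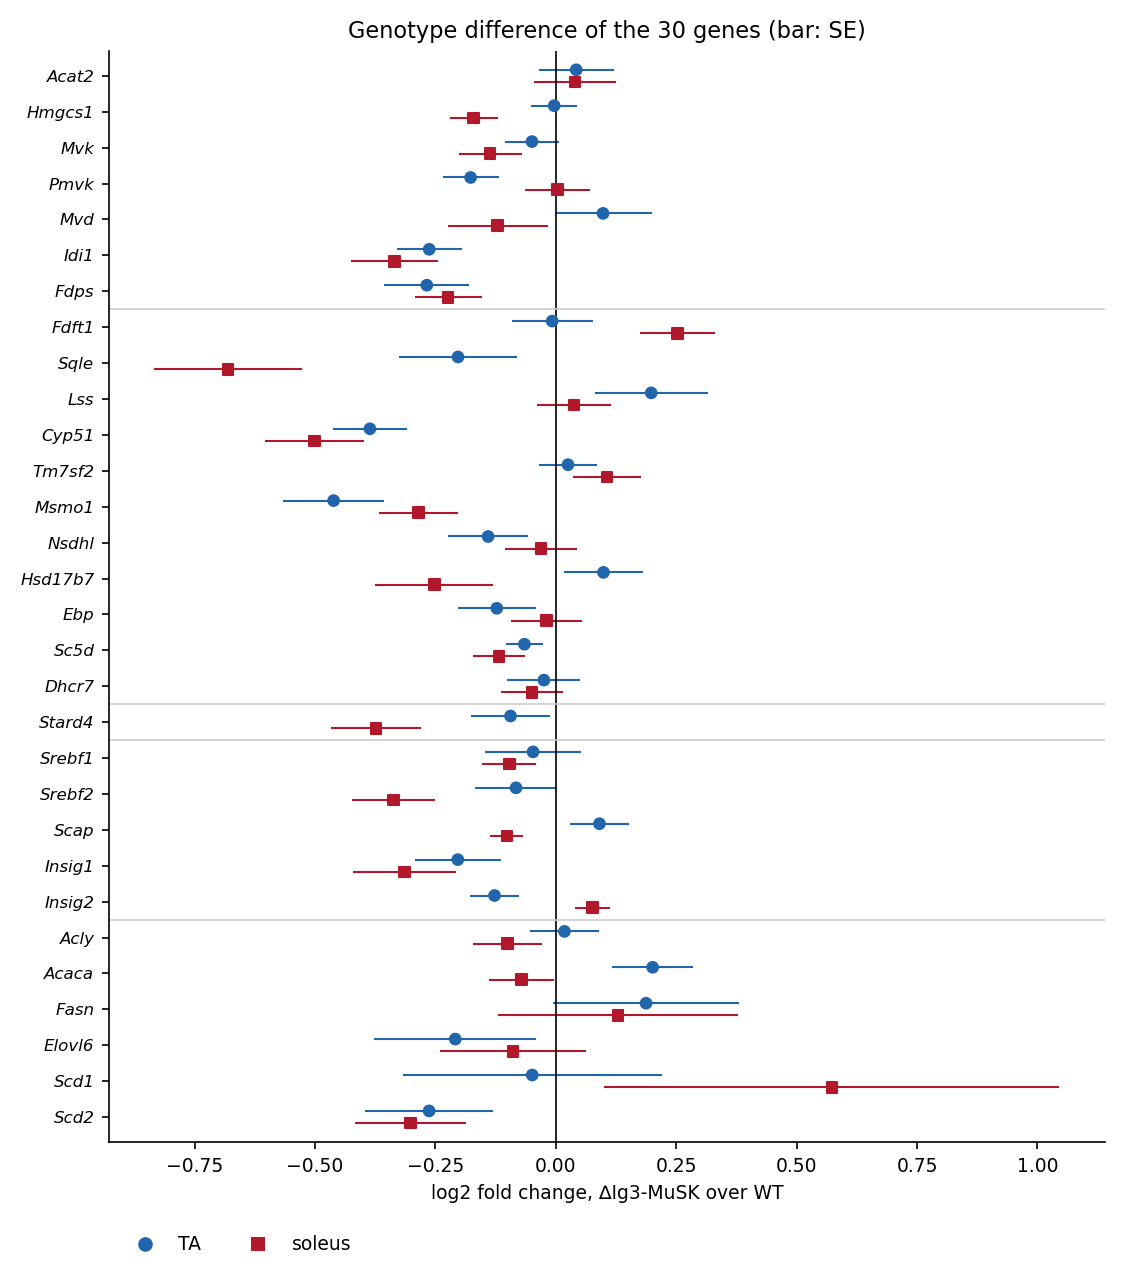
The log2 fold change of ∆Ig3-MuSK over WT (x axis, bars are SE) is plotted for the 30 genes (y axis, grouped by role with grey lines) in the TA (circles) and the soleus (squares). Cyp51, Msmo1, Idi1 and Scd2 lie below -0.25 in both muscles, and the steps after squalene and the fatty acid genes lie on both sides of 0.

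Counted over the list, 21 of the 30 genes lay below 0 in the TA, with 22 in the soleus, where 50.7% and 50.6% of all genes tested did. In both muscles together, 17 of the 30 genes were below 0, or 16 of 29 without Cyp51, beside 23.5% of the 18931 genes tested in both. The median log2 fold change of the 30 genes was -0.0575 for the TA and -0.101 for the soleus, with all genes at -0.00316 and -0.00170. At a Benjamini-Hochberg adjusted p under 0.05 and at least a 1.2-fold change (edgeR's quasi-likelihood test over all genes), 0 of the 30 genes were called in the TA, where 0.0149% of the 20075 genes tested were called. In the soleus 2 genes, Cyp51 and Sqle, were called, both lower, where 0.952% of the 19439 genes tested were called in either direction and 0.586% lower. Since this contrast chose the list, nothing is read from these counts. At an unadjusted p under 0.05, 1 of the 30 genes was higher and 7 were lower in the TA, beside 2440 and 2402 of all genes, and 2 and 12 in the soleus, beside 1648 and 1957.

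As a description of how these 2 calls stood to single libraries, Cyp51 was no longer called without WT soleus replicate 3, 4, 5 or 6 or ∆Ig3-MuSK soleus replicate 1, 4 or 5, with a log2 fold change of -0.50 to -0.45. Sqle was not called without any of these 7 libraries either, nor without WT soleus replicate 7 or 8 or ∆Ig3-MuSK soleus replicate 2, 3 or 8, with a change of -0.71 to -0.62. When 1 of the 7 libraries that cost Cyp51 its call was left out, 22 to 51 of all genes were called. With no library left out, 185 of all genes were called. Leaving out WT soleus replicate 1 gave 5 called genes of the 30 and 602 of all genes. WT soleus replicate 2 gave 6 and 416, and ∆Ig3-MuSK soleus replicate 7 gave 4 and 314. Without both ∆Ig3-MuSK soleus libraries that stood apart, 0 of the 30 genes and 28 of all genes were called, and Cyp51 had a change of -0.52. Without both WT TA libraries that stood apart, 0 of the 30 genes were called in the TA, as before. In the TA, DESeq2 called Cyp51, Idi1 and Msmo1 lower among 225 genes in all, and limma-voom with sample quality weights called Cyp51 and Msmo1 lower among 150.

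Other lists of genes were compared between genotypes in the same libraries, and of the lists given here only the clock list held called genes. The 11 circadian clock genes counted summed to 501 to 709 CPM in WT TA and 664 to 883 in ∆Ig3-MuSK TA, and to 373 to 482 in WT soleus and 482 to 706 in ∆Ig3-MuSK soleus. Among these 11 genes, the TA gave 1 call (Dbp, higher). The soleus gave 9 calls, 7 higher and 2 (Arntl and Npas2) lower. Over all genes tested, the share with a call was 0.0149% for the TA and 0.952% for the soleus. At such shares a list this short would seldom hold a call, so the lack of calls in the other lists says little. The clock list, like the others, was chosen with earlier results of these data known, and nothing is read from its count. Within groups, the log2 level of Cyp51 and the log2 clock sum had r = -0.48 over the 18 TA libraries and r = -0.51 over the 18 soleus libraries. Of all genes, 5% had an r with Cyp51 below -0.49 in the TA and below -0.40 in the soleus. With the adipocyte sum Cyp51 had r = 0.53 in the TA and 0.12 in the soleus. With the macrophage sum r was 0.27 and -0.12, and with the fibroblast sum -0.20 and -0.0170. These values describe libraries that share their depth and handling. Macrophage genes summed to 55.9 to 151 CPM in WT soleus and 17.8 to 93.0 in ∆Ig3-MuSK soleus, and fibroblast genes to 565 to 1589 and 333 to 887, with 0 of the 6 and 0 of the 5 genes called. Immediate early genes, which respond to handling and activity, had 9 of 9 members below 0 in the soleus (median -0.57 on the log2 scale) and 7 of 9 in the TA (-0.17), with sums of 155 to 282 CPM in WT soleus and 123 to 247 in ∆Ig3-MuSK soleus. Endothelial genes had 6 of 6 below 0 in the soleus (-0.12) and 2 of 6 in the TA (0.0401). Above 0 in the soleus were 8 of 8 adipocyte genes (0.49), 8 of 8 Schwann and myelin genes (0.14) and 5 of 5 fast fiber genes (0.23), with 2 of 8 (-0.17), 7 of 8 (0.11) and 3 of 5 (0.0852) in the TA. None of the genes of these 5 lists was called. The part of any of these genes in the values of Cyp51 and its neighbours was not tested.

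The difference between the muscles in the genotype effect was then tested directly. In a fit over the 36 libraries, the genotype-by-muscle interaction was called for 0 of the 30 genes, and for 0% of the 20841 genes tested (edgeR's quasi-likelihood test, smallest adjusted p = 0.0652), with 2850 genes higher and 2343 lower at an unadjusted p under 0.05, and with 186 genes called by DESeq2, none of them among the 30. The largest interaction in size was that of Scd1, at 0.62 ± 0.57 (soleus effect minus TA effect, log2, adjusted p = 0.502), and it was 1.29 without WT soleus replicate 1 and 0.40 without ∆Ig3-MuSK soleus replicate 9. Sqle followed at -0.46 ± 0.20 (95% interval -0.87 to -0.0586, adjusted p = 0.152). The values of Hsd17b7 (-0.34), Fdft1 (0.27), Stard4 (-0.27) and Acaca (-0.26) had adjusted p of 0.151, 0.165, 0.181 and 0.144. For Cyp51, whose interaction is given without a test, the 95% interval of the difference was -0.37 to 0.16 on the log2 scale, which held 0 and also a soleus effect larger than that of the TA by most of its own size. Insig2, at 0.22 ± 0.0635, had the smallest adjusted p of the 30 genes (0.102). Insig2 was called when WT TA replicate 9 or ∆Ig3-MuSK TA replicate 3 was left out, with 1450 and 982 genes called in all, and by limma-voom with sample quality weights, which called 1352 genes.

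The choice of the list did not use the difference between the muscles, which was tested next. In WT, 19 of the 30 genes differed between soleus and TA (edgeR's quasi-likelihood test over 36 libraries), 12 higher and 7 lower in the soleus, where 30.2% of all genes tested were higher and 27.3% lower. In ∆Ig3-MuSK, 17 differed, 10 higher and 7 lower, where 28.5% and 27.6% of all genes did. The libraries of the muscles did not overlap for 12 of the 30 genes in WT, beside 28.3% of all genes, and for 10 in ∆Ig3-MuSK, beside 29.4%. The median of the 30 genes was 0.18 in WT and 0.15 in ∆Ig3-MuSK on the log2 scale (soleus over TA), with all genes at 0.0176 and -0.00130. The counts of each muscle came as a table of its own, so that muscle and table cannot be told apart. The calls of Ebp in WT (0.27, adjusted p = 0.00245) and of Cyp51 (0.26, 0.0129) and Stard4 (0.27, 0.00793) in ∆Ig3-MuSK lay at the 1.2-fold limit of 0.26. Leaving out a library moved them below it, for Ebp WT soleus replicate 1, 2 or 7 or WT TA replicate 1, 6, 7 or 8 (0.22 to 0.26). For Cyp51 these were ∆Ig3-MuSK soleus replicate 1, 2, 3, 6 or 9 and TA replicate 1, 3, 5 or 9 (0.24 to 0.26), and for Stard4 soleus replicate 2, 3, 7 or 9 and TA replicate 2, 3, 5 or 6 (0.23 to 0.26). Pmvk in ∆Ig3-MuSK was below the limit without soleus replicate 5 (-0.26). Elovl6 in ∆Ig3-MuSK (0.42 ± 0.16, adjusted p = 0.0234) was not called without soleus replicate 5 or 6 or TA replicate 4 or 6 (0.33 to 0.37).

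Of the 6 fatty acid synthesis genes, 4 were called higher in WT soleus (Acly, Acaca, Fasn and Scd1) and 5 in ∆Ig3-MuSK soleus, which adds Elovl6. Acaca ranged over 5.83 to 9.51 CPM (median 7.46) in WT TA and 17.1 to 23.8 CPM (median 19.6) in WT soleus, and Fasn over 6.37 to 21.9 CPM (median 11.7) and 22.5 to 69.8 CPM (median 28.96). Neither gene overlapped between the WT muscles, with log2 fold changes of 1.38 ± 0.0787 (adjusted p = 5.88e-18) and 1.50 ± 0.24 (7.48e-07). Scd1 ranged over 13.4 to 56.6 CPM (median 25.2) in WT TA, 19.0 to 64.7 CPM (median 27.8) in ∆Ig3-MuSK TA, 41.5 to 451 CPM (median 72.8) in WT soleus and 35.3 to 368 CPM (median 178) in ∆Ig3-MuSK soleus. It was 3.38-fold higher in WT soleus (log2 1.76 ± 0.41, adjusted p = 3.21e-04) and 5.20-fold in ∆Ig3-MuSK soleus (2.38 ± 0.42, 6.14e-06), with overlap in both genotypes. Without WT soleus replicate 1, the highest of these libraries, the WT difference was 1.09 on the log2 scale, or 2.13-fold (adjusted p = 0.00500). Acly ranged over 12.0 to 18.3 CPM (median 16.5) in WT TA and 19.7 to 27.5 CPM (median 22.5) in WT soleus, without overlap (log2 0.52 ± 0.0706, adjusted p = 3.32e-08). In ∆Ig3-MuSK, Acaca was again higher in every soleus library, at 8.04 to 9.52 CPM (median 8.91) in the TA, against 15.6 to 23.3 CPM (median 19.6) in the soleus (1.12 ± 0.0779, 2.28e-15), and Fasn was higher with overlap (1.45 ± 0.24, 1.31e-06). Elovl6 was not called in WT (0.29 ± 0.16), and Scd2 in neither (0.0770 ± 0.13 in WT, 0.0507 ± 0.13 in ∆Ig3-MuSK).

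Adipocyte genes were also higher in the soleus, and in the soleus their sum moved with Scd1 and Fasn from library to library. The 8 adipocyte genes summed to 198 to 316 CPM in WT TA, 163 to 259 in ∆Ig3-MuSK TA, 256 to 601 in WT soleus and 253 to 595 in ∆Ig3-MuSK soleus. All 8 genes lay above 0 (soleus over TA) in both genotypes. Of these, 7 were called higher in WT and 8 in ∆Ig3-MuSK, where 30.2% and 28.5% of all genes tested were called higher. Plin1, which coats the lipid droplets of adipocytes, ranged over 0.936 to 5.91 CPM (median 2.11) in WT TA and 4.62 to 34.8 CPM (median 8.98) in WT soleus. With group means removed, log2 Scd1 and log2 Plin1 had Pearson r = 0.91 and Spearman rho = 0.93 over 18 TA libraries. Over 18 soleus libraries they had r = 0.92 and rho = 0.87, and r = 0.85 without the 2 libraries farthest out in Plin1. The adipocyte genes Adipoq and Cidec had lower r with Scd1 in the TA, at 0.80 and 0.72, and both had 0.92 in the soleus. Scd1 and the adipocyte sum had r = 0.92 in the soleus and 0.25 in the TA. Fasn and the adipocyte sum had r = 0.79 in the soleus and -0.31 in the TA. Acly moved instead with the macrophage sum in the soleus, at r = 0.84, beside -0.32 in the TA. WT soleus replicate 1 held the highest Scd1 and the highest adipocyte sum of all libraries, 451 and 601 CPM. The part of fat cells in the muscle difference of Scd1 and Fasn was not tested.

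**Figure D3:**
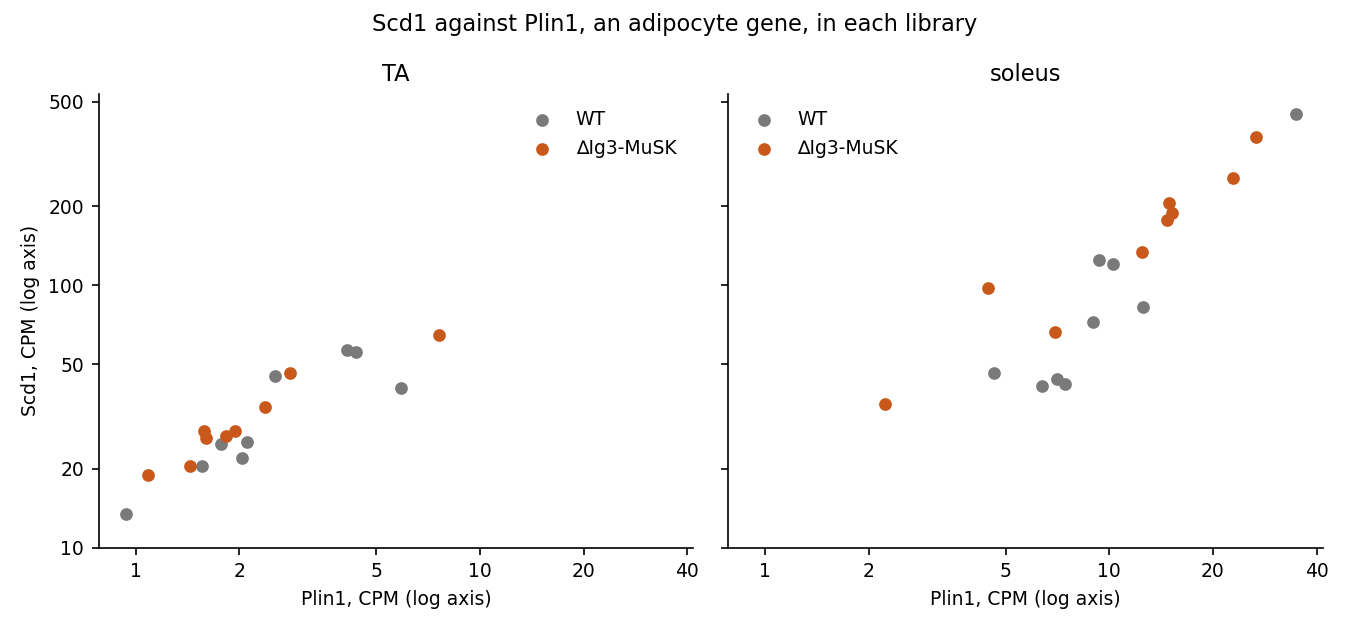
Scd1 (y axis, CPM, log axis) is plotted against the adipocyte gene Plin1 (x axis, CPM, log axis) for each library of the TA (left) and the soleus (right), with 9 WT (grey) and 9 ∆Ig3-MuSK (orange) points in each panel. The 2 genes rise together in both muscles, and WT soleus replicate 1 is the point at the upper right, at 451 CPM of Scd1.

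The cholesterol genes differed between the muscles in both directions. Among the mevalonate genes, Mvd, which makes isopentenyl diphosphate, ranged over 3.33 to 4.21 CPM (median 3.64) in WT TA and 10.3 to 16.05 CPM (median 12.2) in WT soleus, 3.33-fold higher in the soleus (log2 1.73 ± 0.11, adjusted p = 6.08e-17). In ∆Ig3-MuSK it ranged over 3.10 to 5.40 CPM (median 3.89) in the TA, against 8.21 to 13.9 CPM (median 12.0) in the soleus (2.89-fold, adjusted p = 2.06e-15). No soleus library of either genotype reached down to a TA library of that genotype. Hmgcs1 ranged over 21.1 to 26.8 CPM (median 25.3) in WT TA and 29.2 to 36.2 CPM (median 31.6) in WT soleus, also without overlap (0.41 ± 0.0493, adjusted p = 3.47e-09). Mvk ranged over 5.56 to 6.39 CPM (median 6.18) and 6.55 to 7.76 CPM (median 6.89), without overlap, but its change of 0.22 ± 0.0620 was under the fold limit. Pmvk went the other way, from 8.61 to 11.1 CPM (median 9.11) in WT TA to 5.94 to 8.21 CPM (median 6.69) in WT soleus (-0.49 ± 0.0640, adjusted p = 1.63e-08). Adjacent steps of the pathway thus lay on opposite sides of 0. In ∆Ig3-MuSK, Pmvk was again lower (-0.30 ± 0.0639, adjusted p = 9.80e-05), and Hmgcs1 (0.25 ± 0.0493) and Mvk (0.14 ± 0.0620) were under the fold limit. Acat2, Idi1 and Fdps lay between -0.0218 and 0.15 and were not called.

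After squalene, Sc5d, which sets a double bond in the sterol ring, was the most separated. It ranged over 28.2 to 31.4 CPM (median 29.997) in WT TA and 13.6 to 17.9 CPM (median 15.9) in WT soleus (log2 -0.93 ± 0.0458, adjusted p = 7.78e-20). In ∆Ig3-MuSK it ranged over 26.8 to 29.6 CPM (median 28.9) and 13.8 to 16.01 CPM (median 14.6) (-0.97 ± 0.0458, 2.47e-20). Tm7sf2 was lower in the soleus too, at 5.33 to 6.34 CPM (median 5.93) in WT TA and 3.53 to 4.38 CPM (median 3.85) in WT soleus (-0.58 ± 0.0655, adjusted p = 6.45e-10), without overlap in either genotype. Tm7sf2 shares exonic bases with Vps51 on the same strand. Dhcr7, Lss and Hsd17b7 were lower in the soleus of both genotypes, by -0.40, -0.39 and -0.37 in WT and -0.41, -0.54 and -0.71 in ∆Ig3-MuSK. In ∆Ig3-MuSK these 3 genes did not overlap between the muscles, with Hsd17b7 at 3.72 to 4.72 CPM (median 4.33) in the TA, against 2.09 to 3.21 CPM (median 2.67) in the soleus. Dhcr7 ranged there over 4.52 to 5.62 CPM (median 4.90) and 3.45 to 4.11 CPM (median 3.82), and Lss over 3.75 to 5.69 CPM (median 4.75) and 2.82 to 3.54 CPM (median 3.39).

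Cyp51, Msmo1 and Sqle were higher in the soleus of WT. Their log2 fold changes there were 0.37 ± 0.0917 (adjusted p = 6.38e-04), 0.42 ± 0.0939 (1.85e-04) and 0.67 ± 0.14 (7.03e-05). In ∆Ig3-MuSK they were 0.26 ± 0.0934 (0.0129), 0.61 ± 0.10 (8.36e-07) and 0.21 ± 0.14 (0.206), so that Sqle was called in WT and not in ∆Ig3-MuSK, a difference that the interaction test above did not call. Msmo1 ranged over 1.71 to 2.33 CPM (median 1.94) in ∆Ig3-MuSK TA and 2.46 to 3.78 CPM (median 2.94) in ∆Ig3-MuSK soleus and did not overlap. Neither did Ebp, a sterol isomerase, at 2.73 to 3.44 CPM (median 3.29) and 3.55 to 4.88 CPM (median 4.14) (0.38 ± 0.0763, adjusted p = 4.15e-05). Fdft1 and Nsdhl were called in neither genotype, with -0.22 ± 0.0862 and 0.0373 ± 0.0781 in WT.

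The carrier and the regulators differed as follows. Stard4 ranged over 3.42 to 4.44 CPM (median 4.12) in WT TA and 4.86 to 6.91 CPM (median 5.51) in WT soleus, without overlap (0.54 ± 0.0887, adjusted p = 1.70e-06). Srebf1 was lower in every soleus library, at 40.8 to 71.9 CPM (median 49.3) in WT TA and 23.2 to 32.0 CPM (median 27.4) in WT soleus (-0.91 ± 0.0835, adjusted p = 4.20e-12). In ∆Ig3-MuSK it ranged over 38.5 to 65.0 CPM (median 48.4) and 23.9 to 30.3 CPM (median 25.6) (-0.94 ± 0.0836, 1.63e-12). The direction of Srebf1 was thus opposite to that of Acaca, Fasn and Scd1, whose genes SREBP-1 is known to drive. Scap, the escort of SREBP, ranged over 17.0 to 23.8 CPM (median 21.98) in WT TA and 25.8 to 28.9 CPM (median 27.7) in WT soleus, without overlap (0.37 ± 0.0477, adjusted p = 1.11e-08), and was under the fold limit in ∆Ig3-MuSK (0.19 ± 0.0476). Srebf2, Insig1 and Insig2 were called in neither genotype, and lay between -0.0907 and 0.22 in WT.

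**Figure D4:**
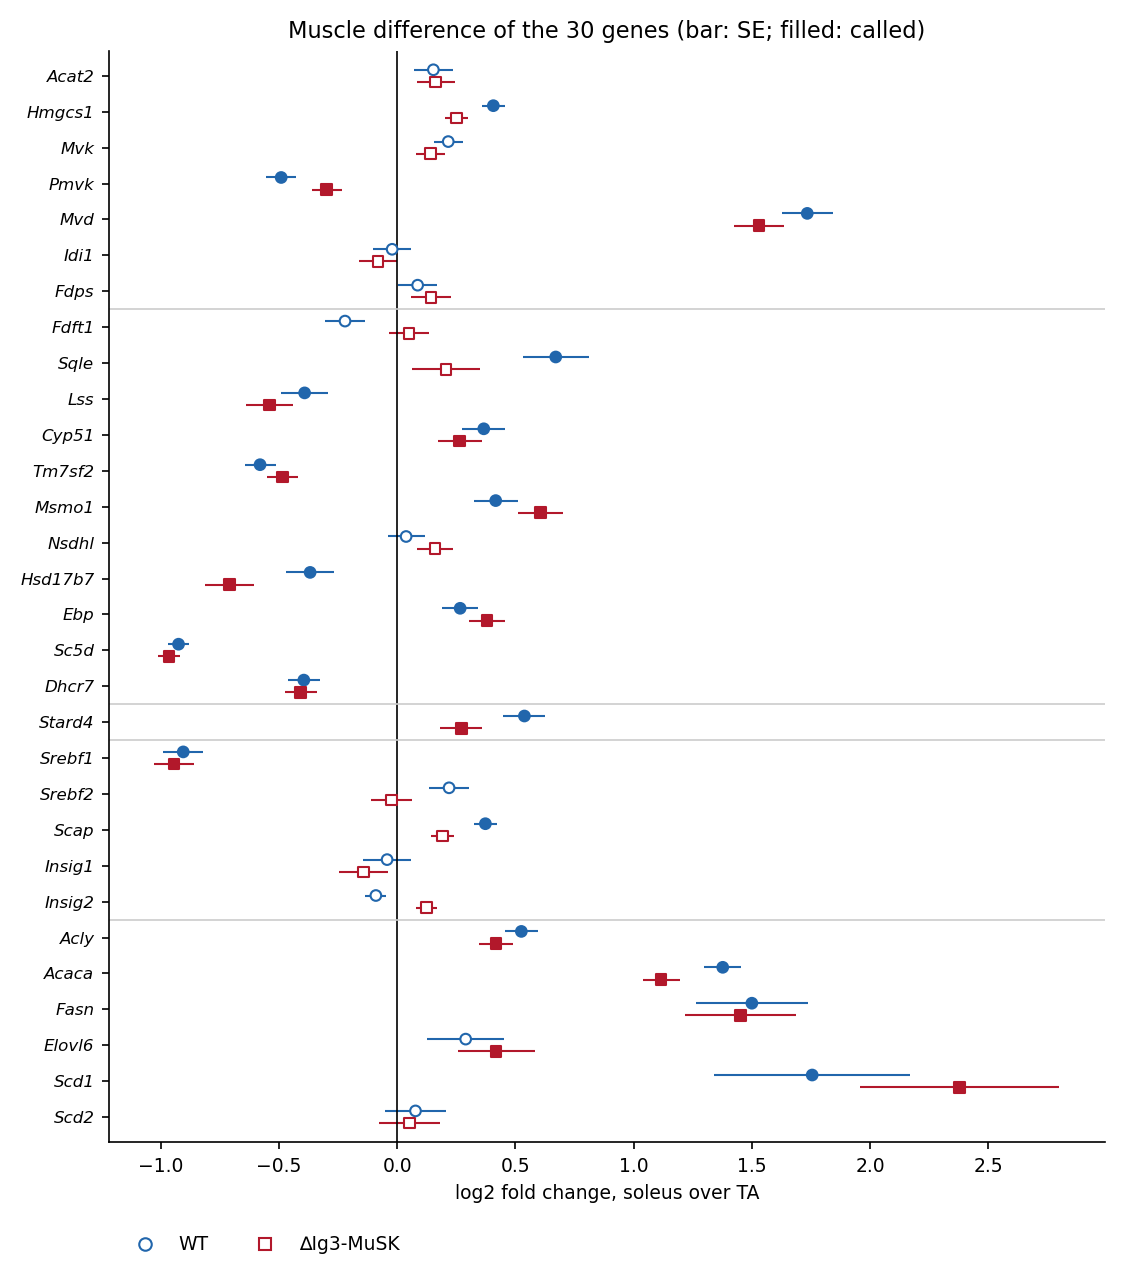
The log2 fold change of soleus over TA (x axis, bars are SE) is plotted for the 30 genes (y axis, grouped by role with grey lines) in WT (circles) and ∆Ig3-MuSK (squares), with filled symbols for called genes. Mvd, Acaca, Fasn and Scd1 lie farthest to the right in both genotypes, and Sc5d and Srebf1 farthest to the left.

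Of 26 further genes of sterol and lipid metabolism, listed with the 30 but not among them, 11 were called higher and 9 lower in WT soleus, and 9 and 5 in ∆Ig3-MuSK soleus. Of all genes tested, 30.2% were called higher and 27.3% lower in WT soleus, and 28.5% and 27.6% in ∆Ig3-MuSK soleus. The largest of these was Dgat2, which makes triglyceride, at 2.78 ± 0.13 in WT (log2, adjusted p = 1.07e-20) and 2.74 ± 0.13 in ∆Ig3-MuSK (1.72e-20). Acss2, which makes acetyl-CoA from acetate, followed at 1.49 ± 0.0637 and 1.34 ± 0.0634, and Me1, the cytosolic malic enzyme, was lower at -1.23 ± 0.0538 and -1.09 ± 0.0536. The others called higher in WT were Fads1, Fads2, Elovl5, Acacb, Gpam, Aacs, Lpcat3, Abca1 and Abcg1, by 0.33 to 0.81, and those called lower were Ggps1, Pnpla3, Lpin1, Npc1, Thrsp, Nr1h2, Nr1h3 and Rnf139, by -0.99 to -0.30. In ∆Ig3-MuSK the others higher were Fads1, Elovl5, Acacb, Gpam, Aacs, Lpcat3 and Abcg1, and the others lower were Lpin1, Npc1, Nr1h3 and Soat1.

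Whether the genes moved together from library to library was examined with the group means removed, so that neither genotype nor muscle enters. In the soleus, 10 of the other 29 genes had a Pearson r with Cyp51 above 0.41, the level that 5% of all genes exceeded. These were Sc5d (r = 0.83), Sqle (0.81), Idi1 (0.79), Hmgcs1 (0.78), Msmo1 (0.76), Insig1 (0.73), Hsd17b7 (0.69), Stard4 (0.64), Fdps (0.50) and Srebf2 (0.41). The first 5 had Spearman rho of 0.79 to 0.85, and kept r of 0.63 to 0.80 without the 2 libraries farthest out in Cyp51. Within WT soleus alone (n = 9) their r ran from 0.81 to 0.88, and within ∆Ig3-MuSK soleus (n = 9) from 0.60 to 0.83. For Insig1 r was 0.88 within WT soleus and 0.16 within ∆Ig3-MuSK soleus, and for Hsd17b7 0.81 and 0.35. In the same order, Stard4 had 0.86 and 0.47, Fdps 0.45 and 0.64, and Srebf2 0.69 and -0.13. These differences between the genotypes were not tested. Without the 2 libraries farthest out in Cyp51, Srebf2 had r = 0.0639 over the soleus, and so its r rested on them. The median over the 29 genes was 0.32 in the soleus, with all genes at 0.0138.

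Over the 18 TA libraries the r of the same genes with Cyp51 was lower. There 3 of the 29 genes, Fdft1 (r = 0.54), Insig1 (0.53) and Idi1 (0.51), were above 0.49, the level that 5% of all genes exceeded. Sc5d had r = 0.31, Hmgcs1 0.11, Msmo1 0.41 and Sqle 0.45, and the median over the 29 genes was 0.0681, with all genes at -0.00474. Within WT TA alone and ∆Ig3-MuSK TA alone (n = 9 each), r differed widely. It was -0.0258 and 0.73 for Sc5d, 0.64 and 0.25 for Sqle, and 0.70 and 0.15 for Idi1. For Hmgcs1 it was -0.12 and 0.77, and for Msmo1 0.79 and -0.55. The difference between the genotypes was not tested. Fasn had a negative r over the 18 libraries, at -0.48 for the TA and -0.0285 in the soleus. The fatty acid genes moved among themselves, with a median r over their 15 pairs of 0.48 for the TA and 0.38 for the soleus. Over the 153 pairs of cholesterol genes the median was 0.0593 and 0.21, and over the 108 pairs of a cholesterol and a fatty acid gene -0.0339 and 0.0531. These correlations are descriptions over 18 libraries a muscle, whose points share depth, scaling and dissection, and the difference between the muscles was not tested.

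**Figure D5:**
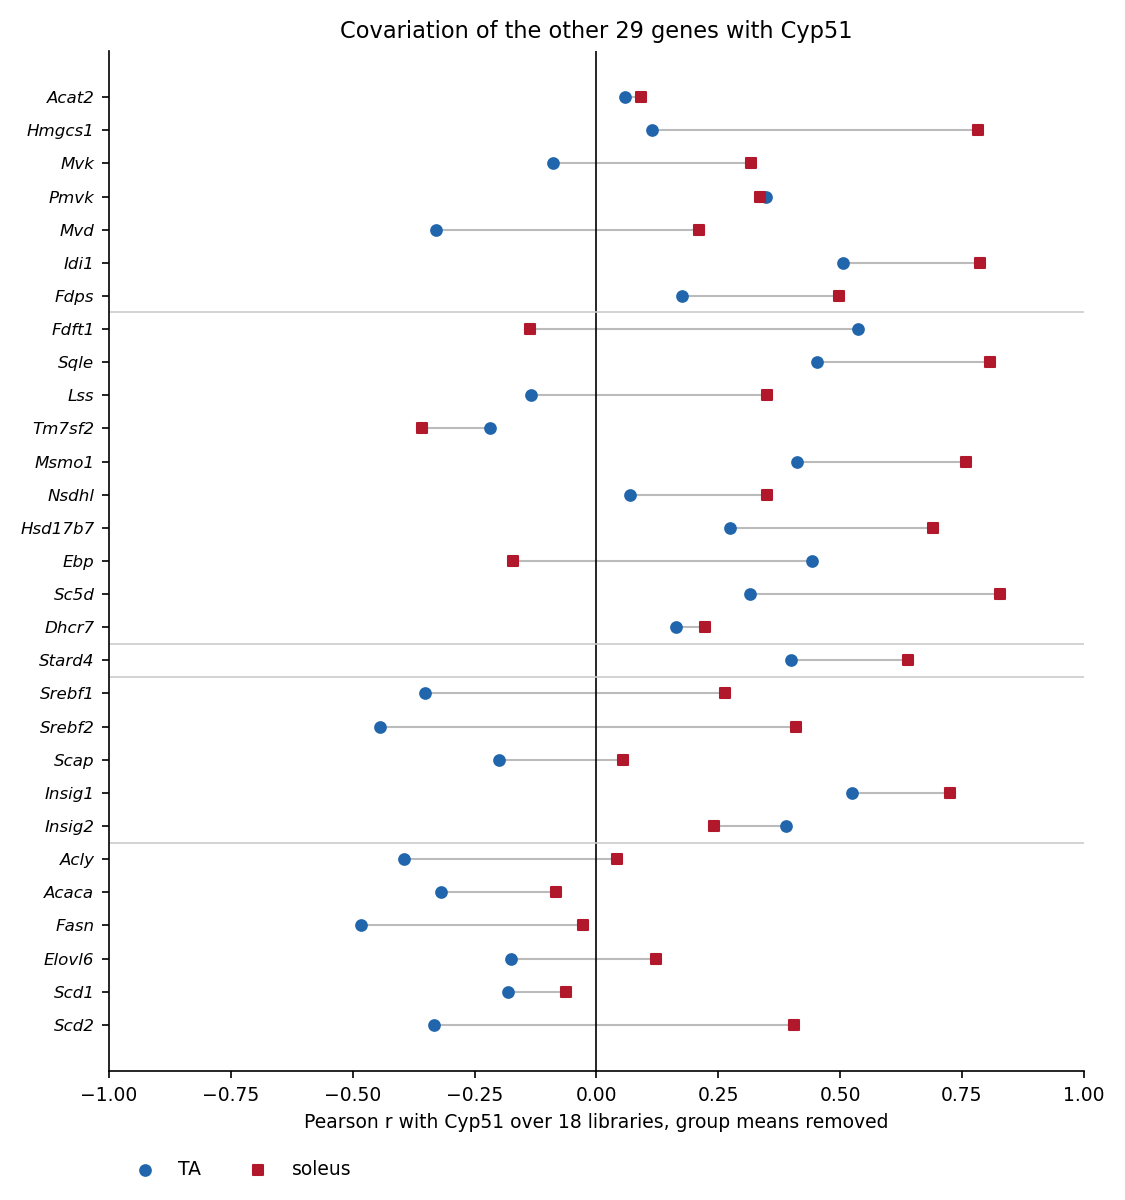
Pearson r with Cyp51 over the 18 libraries of a muscle with group means removed (x axis) is plotted for the other 29 genes (y axis, grouped by role with grey lines) in the TA (circles) and the soleus (squares). In the soleus Sc5d, Sqle, Idi1, Hmgcs1, Msmo1 and Insig1 lie highest, at 0.73 to 0.83, and in the TA the highest is Fdft1, at 0.54.

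The spread among libraries was compared as well. The SD of log2 CPM was smaller in ∆Ig3-MuSK than in WT for 22 of the 30 genes in the TA, where it was smaller for 70.5% of all genes, and for 20 of the 30 in the soleus, where it was for 42.1% of all genes. For Cyp51 the coefficient of variation was 12.0% in WT TA, 9.15% in ∆Ig3-MuSK TA, 19.7% in WT soleus and 10.8% in ∆Ig3-MuSK soleus. Sqle and Insig1 had 26.5% and 21.8% in WT soleus and 15.2% and 10.6% in ∆Ig3-MuSK soleus. No test of these spreads was made.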

How the data were processed

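Gene counts came from RNA-seq of TA and soleus muscles, from non-stranded NEBNext Ultra libraries. The deposited counts are raw: the authors trimmed reads with Trimmomatic, aligned them with GSNAP to mm10 (GRCm38) and counted them per gene with htseq-count, in 1 table per muscle. Tool versions, annotation release and counting mode are not given in the sources used here. Of the 51912 gene IDs, 51633 matched a gene symbol of the reference annotation. Groups came from the sample labels, with 9 libraries in each, and each library is taken as a separate animal of its group. Nothing in the labels says that the libraries of a group were prepared apart, so p-values measure the spread between these samples.

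Counts were filtered with filterByExpr (minimum count 10, total 15), scaled by TMM and tested with edgeR 4.0.16 (quasi-likelihood, R 4.3.3). Genotypes were fitted within each muscle over 18 libraries, and muscle differences and the interaction over all 36 with 4 group means. A call needed a Benjamini-Hochberg adjusted p under 0.05 and, except for the interaction, a 1.2-fold change. CPM used TMM over 36 libraries, and RPKM the exonic length. The test was checked on simulated counts. Alternatives were DESeq2 1.42.0, limma 3.58.1 (voom with sample quality weights), RLE factors, no low-count filter, no fold minimum, pooled or separate fits, a block on replicate or label number and leaving out libraries. The removal of libraries that stood apart at the high end of the first principal component was added after seeing the data.

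The 30 genes, the 26 further genes and the markers (slow and fast fibers, adipocytes, Schwann cells and myelin, endothelium, macrophages, fibroblasts, clock, immediate early genes) were chosen with earlier results of these data known. All 30 are named. Library values are given for Cyp51 and, in each comparison, for the 6 genes with the largest fold change and those whose groups did not overlap. A further 5 pathway genes listed at the start are not reported here, and the genotype counts of the further genes are left out with them, since they would no longer stand for the list.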

Additional observations from a re-analysis of the deposited data

Results flagged for a closer look

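In 5 of 120 checked sets of 9 libraries (30 genes in 4 groups), the highest or lowest library lay far from the others by Dixon's ratio, and chance alone flags about 1 in 20. ∆Ig3-MuSK soleus replicate 5 was low in Pmvk, at 5.33 CPM with the next library at 6.54, and in Lss, at 2.82 CPM with the next at 3.18. WT TA replicate 1 was high in Hsd17b7, at 5.40 CPM with the next at 4.34. ∆Ig3-MuSK soleus replicate 9 was high in Srebf1, at 30.3 CPM with the next at 26.9. WT soleus replicate 1 was high in Scd1, at 451 CPM with the next at 125, and it also held the highest adipocyte sum. The cause of these values was not tested.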

How the results depend on the processing

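In the TA, 0 of the 30 genes were called in the genotype comparison, and DESeq2 called 3 (Cyp51, Idi1 and Msmo1), limma-voom with sample quality weights 2 (Cyp51 and Msmo1) and 1 fit over 36 libraries 3. In the soleus, where 2 were called, DESeq2 and limma-voom each called 6 (Cyp51, Idi1, Msmo1, Sqle, Srebf2 and Stard4), the fit over 36 libraries called 5, and 0 were called without both ∆Ig3-MuSK soleus libraries that stood apart. Interaction calls went from 0 to 1 (Insig2) under limma-voom. Leaving out each replicate in turn gave 0 genes in the TA throughout, 0 to 6 in the soleus, 18 to 19 for the muscles in WT, 15 to 18 for the muscles in ∆Ig3-MuSK and 0 to 1 for the interaction. The cause of these differences was not tested.

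Over all genes, the TA gave 3 calls, against 225 with DESeq2, 150 with limma-voom, 10 without the filter, 692 in the fit over 36 libraries and 3 to 9 without a replicate. The soleus gave 185, against 486, 653, 141, 312 and 22 to 602. The interaction gave 0, against 186 with DESeq2 and 1352 with limma-voom. The genes followed through the alternatives were, in each comparison, those called or with the largest changes, with Cyp51 and Insig2 added in the interaction. None of these changed direction, and genes near 0 were not followed.

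The replicate block called 0 of the 30 genes in the TA, 2 in the soleus (Cyp51 and Srebf2, without Sqle), 19 for the muscles in WT, 17 in ∆Ig3-MuSK and 0 for the interaction, and over all genes 0 for the TA and 347 for the soleus. A block on the numbers of the labels, most of which TA and soleus share, called 19, 16 and 0 of the 30, and 9 genes of all in the interaction. For the 16 pairs of label numbers, the correlation of their deviations was 0.0256 to 0.284. Its median was 0.0911, beside -0.0117 for other pairs. It was over 0.1 in 7 of the 16, and 5 libraries correlated best with their own number. For replicate numbers it was over 0.1 in 2 of 9 pairs of the TA and 3 of 9 of the soleus, with 1 and 1 best with their own. Pairs that shared a label number were thus somewhat more alike than other pairs. Whether a shared number marks the same animal was not settled, and the main fits treated the libraries as unpaired. On a variance-stabilized scale the median r with Cyp51 was 0.11 for the TA and 0.30 for the soleus.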
